A study of Mus musculus with 6 samples.

Results

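The 35 genes described here are collagens of the mouse outside type IV, from Col1a1 to Col28a1, chosen by name from a fixed list. All 35 were measured, of 22180 genes in the series. A probe set was used only where its platform annotation held a single gene symbol equal to a listed name, and for the 3 genes with several such probe sets (Col1a2, Col5a1 and Col6a1) the one with the highest mean across the 6 arrays was taken. RNA came from whole lung buds of mouse embryos at stage E12.5 and was measured on microarrays, 1 array per sample. The control group was 3 lung samples of genotype Shh cre/+, with a Cre recombinase at the Shh locus. The mutant group was 3 lung samples of genotype Fzd2Flox/Flox; Shh cre/+, with the same Cre and both copies of the Wnt receptor gene Fzd2 flanked by sites that Cre recombines. The Shh locus is active in lung epithelium, whereas most collagens outside type IV are made by mesenchyme, so the deletion was aimed at a compartment other than the one that makes most of these genes' RNA, and no array measured either compartment alone. The sources used here do not say whether an array holds 1 embryo or a pool.

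Collagens are secreted proteins of 3 chains wound into a triple helix. Fibrillar collagens, chiefly types I, III and V, assemble into the cross-banded fibrils that give tissue its tensile strength, and fibril-associated collagens coat those fibrils and space them. Types II, IX, X and XI are characteristic of cartilage, which in the respiratory tract forms the rings of the trachea and main bronchi. Type VI forms beaded microfibrils around cells, type VII anchors basement membranes, type VIII forms networks, some collagens stay in the cell membrane, and types XV and XVIII sit at basement membranes. In the lung bud, interstitial collagen lies mainly around the airway stalks and at clefts between branches.

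The collagen genes as a set had mostly higher means in mutant lungs, by small amounts, and no gene passed the test. Of the 35, 29 had a higher mean in mutants, against 54.8% of all genes, and the median log2 difference, mutant minus control, was 0.09 against 0.01 over all genes. By limma, 0 of 35 were called at an adjusted p under 0.05, where 14 of 22180 genes (0.0631%) were called, and the lowest adjusted p among collagens was 0.290, that of Col27a1. At an unadjusted p under 0.05 there were 9 collagens, 7 higher (20.0% of the 35, against 7.34% of all genes) and 2 lower (against 5.15% of all genes). In 10 collagens the 3 mutant arrays all lay on one side of the 3 controls, 8 above and 2 below, against 19.4% of all genes, of which 10.6% above and 8.83% below. Limma's standard errors for the 35 genes ran from 0.05 to 0.18 log2 units, so differences of the size seen here, between -0.23 and 0.44, were near the limit of what 3 arrays against 3 resolve. The 7 and 2 became 2 and 2 when each array was centred on its median over the 22180 genes, not over all probe sets. That centring lowered the median log2 difference of the collagens to 0.05 and that of all genes to -0.02. With it 5.71% of collagens were higher against 4.06% of all genes, and 5.71% were lower against 8.45%. The 7 and 2 became 11 and 2 after a further quantile normalization, with 9.20% of all genes higher and 3.44% lower. Without control replicate 1 they were 2 and 2, and the share of collagens that were higher, 5.71%, lay below the 8.67% of all genes. They were 3 and 2 without control replicate 2 (4.84% of all genes higher) and 4 and 2 without control replicate 3 (5.50%). The counts were 4 and 2 without mutant replicate 1 (7.29%) and 5 and 2 without mutant replicate 2 (6.37%). Without mutant replicate 3 they stayed at 7 and 2 (5.99%). With both control replicate 1 and mutant replicate 2 left out they were 5 and 1 (7.75%).

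**Figure D1:**
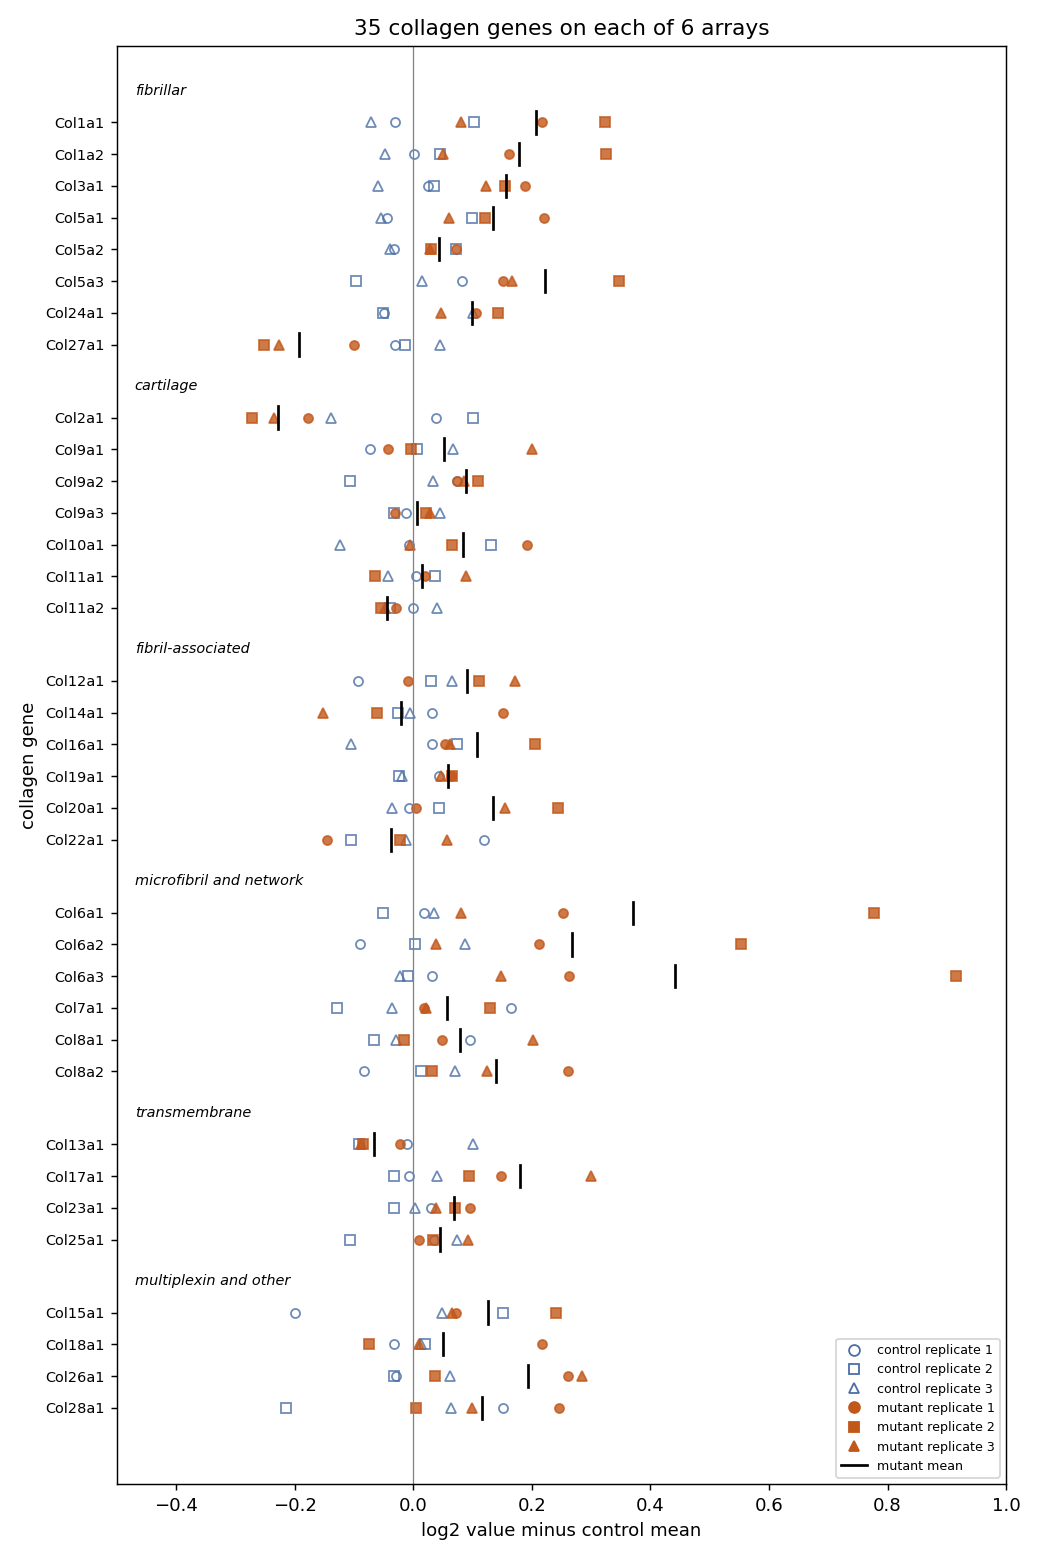
The horizontal axis gives the log2 value of each array minus the mean of the 3 controls, and each row is 1 collagen gene, in the 6 groups used here. Open symbols are control arrays, filled symbols are mutant arrays, and black ticks are mutant means. The black tick lies right of 0 in 29 of 35 rows, and the squares of mutant replicate 2 stand far to the right for Col6a1, Col6a2 and Col6a3.

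The array medians over 41345 probe sets lay between 7.29 and 7.32. The targeted gene, Fzd2, gave a mutant-minus-control log2 difference of -0.29 (SE 0.15, 3 arrays each; limma adjusted p = 0.475), with overlapping groups. Markers of the labelled tissue were present, with the 5 epithelial markers at or above the 76.0th and the 7 lung mesenchyme markers at or above the 59.4th percentile of mean expression. By the means of marker lists, 3 arrays stood apart. For 7 small intestine genes the mean log2 value was 10.03 in control replicate 1 and 6.32 to 6.57 elsewhere. For 5 adipose genes it was 10.10 in mutant replicate 2 and 6.71 to 7.57 elsewhere, and for 7 heart muscle genes it was 9.42 in mutant replicate 1 and 8.07 to 8.13 elsewhere. Their part in the collagen values was not tested beyond leaving each array out.

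Among the 8 fibrillar collagens outside the cartilage group, 7 had higher means in mutants (against 54.8% of all genes) and 1 lower. Their median log2 difference was 0.14. Of these, 4 were higher and 1 lower at an unadjusted p under 0.05, against 7.34% and 5.15% of all genes. By limma 0 passed over all genes. The arrays of the groups separated for 4 of the 8, 3 with mutants above and 1 below, against 10.6% and 8.83% of all genes. The genes with higher means include both chains of type I, type III and the third type V chain, and the gene with a lower mean is Col27a1.

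Col1a1, the alpha 1 chain of type I collagen, stood at log2 values of 11.13, 11.27 and 11.09 in control replicates 1 to 3 and at 11.38, 11.49 and 11.24 in mutant replicates 1 to 3. Mutant replicate 3 lay within the control range, so the groups overlapped. The log2 difference was 0.21 (SE 0.08, n = 3 and 3; adjusted p = 0.351, limma), a 1.15-fold higher mean. A two-sided exact permutation test over the arrays gave p = 0.2 for Col1a1, and 3 arrays against 3 cannot give less than 0.1. Col1a2, the alpha 2 chain that joins the product of Col1a1 in the type I helix, read 10.93, 10.97 and 10.88 in controls and 11.09, 11.25 and 10.98 in mutants. Its groups did not overlap, but mutant replicate 3 exceeded the highest control by less than 0.01. The log2 difference of Col1a2 was 0.18 (SE 0.07, adjusted p = 0.394), and without mutant replicate 2 it was 0.11. For both type I chains the mutant arrays had the same order, with replicate 2 highest and replicate 3 lowest, and the control arrays too, with replicate 2 highest and replicate 3 lowest. A second, dimmer probe set of Col1a2 gave a log2 difference of 0.29, with values of 7.56 to 7.83 in controls and 7.85 to 8.09 in mutants.

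Col3a1 encodes the single chain of type III collagen, which is mixed into type I fibrils in soft, stretching organs. It read 11.15, 11.16 and 11.07 in controls and 11.32, 11.28 and 11.25 in mutants. Every mutant array lay above every control, and the arrays within each group were close together (SD 0.05 and 0.03). The log2 difference was 0.16 (SE 0.05, adjusted p = 0.314), and it stayed between 0.13 and 0.17 with each array left out in turn.

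Sequence next to the start is shown for the 4 fibrillar genes whose arrays separated, Col3a1, Col1a2 and Col5a3 with higher and Col27a1 with lower mutant values. These are the 150 bases before the transcription start, read 5′ to 3′ in the direction of the gene, in build GRCm38.p6 from RefSeq. They lie for Col3a1 at chr1:45311388-45311537 on the plus strand, for Col1a2 at chr6:4505468-4505617 on the plus strand, for Col5a3 at chr9:20815068-20815217 on the minus strand and for Col27a1 at chr4:63215262-63215411 on the plus strand. Capitals mark matches on either strand to the TATA box letters TATAAA, the CCAAT box letters CCAAT or the GC box letters GGGCGG. Overlapping matches of a motif are counted apart, and matches of different motifs do not overlap in the windows shown.
Col3a1: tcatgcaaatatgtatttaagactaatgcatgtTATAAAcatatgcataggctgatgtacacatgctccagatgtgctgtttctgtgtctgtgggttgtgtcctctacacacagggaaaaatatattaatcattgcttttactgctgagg
Col1a2: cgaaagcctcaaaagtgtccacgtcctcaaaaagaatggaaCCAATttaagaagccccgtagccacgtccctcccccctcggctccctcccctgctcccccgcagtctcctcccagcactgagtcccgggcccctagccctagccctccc
Col5a3: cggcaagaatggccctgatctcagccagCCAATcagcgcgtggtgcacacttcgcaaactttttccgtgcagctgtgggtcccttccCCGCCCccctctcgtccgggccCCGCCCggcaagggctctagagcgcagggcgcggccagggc
Col27a1: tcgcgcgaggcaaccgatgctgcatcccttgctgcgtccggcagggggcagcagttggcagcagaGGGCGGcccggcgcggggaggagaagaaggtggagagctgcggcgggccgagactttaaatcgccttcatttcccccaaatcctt
The Col3a1 window held TATAAA at positions -117 to -112 from the start, and the Col1a2 window held CCAAT at -109 to -105. The Col5a3 window held CCAAT at -122 to -118 and GGGCGG on the opposite strand at -63 to -58 and -41 to -36, and the Col27a1 window held GGGCGG at -85 to -80. G and C made up 37.3% of the Col3a1 window, 62.7% of that of Col1a2, 68.7% of that of Col5a3 and 65.3% of that of Col27a1. RefSeq's table held 30 starts of 27 of the 35 collagen genes, and within 250 bases before the start TATAAA was found at 5 of the 30 starts, CCAAT at 9 and GGGCGG at 16. Over all 32851 starts in the table the shares were 12.4%, 33.9% and 32.7%. These matches describe letters and not sites in use.

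Type V collagen starts the assembly of type I fibrils, and its 3 chains are the products of Col5a1, Col5a2 and Col5a3. Col5a3, a chain found in a minor form of type V, read 7.60, 7.42 and 7.53 in controls and 7.67, 7.86 and 7.68 in mutants, with no overlap. Its log2 difference was 0.22 (SE 0.07, adjusted p = 0.315). For Col5a1, values ran from 9.53 to 9.68 in controls and from 9.64 to 9.80 in mutants, a log2 difference of 0.13 (95% interval -0.02 to 0.29). A second, dimmer probe set of Col5a1 at 6.91 to 7.17 gave a log2 difference of 0.09. For Col5a2 the log2 difference was 0.04 (95% interval -0.08 to 0.16), and all 3 mutant arrays lay within the control range. Col5a2 is the direct neighbour of Col3a1 on chromosome 1, with 0 protein-coding genes between them in the RefSeq table, and only for Col3a1 did the arrays of the groups separate. The difference between the 2 neighbours was not tested.

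The minor fibrillar genes are Col24a1 and Col27a1. Col27a1, known from cartilage, read 9.13, 9.14 and 9.20 in controls and 9.06, 8.90 and 8.93 in mutants. All mutant arrays lay below all controls, mutant replicate 1 by the smallest margin. The log2 difference was -0.19 (SE 0.06, adjusted p = 0.290), with -0.24 when mutant replicate 1 was left out and -0.16 when mutant replicate 2 was. For Col24a1 it was 0.10 (95% interval -0.04 to 0.24).

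**Figure D2:**
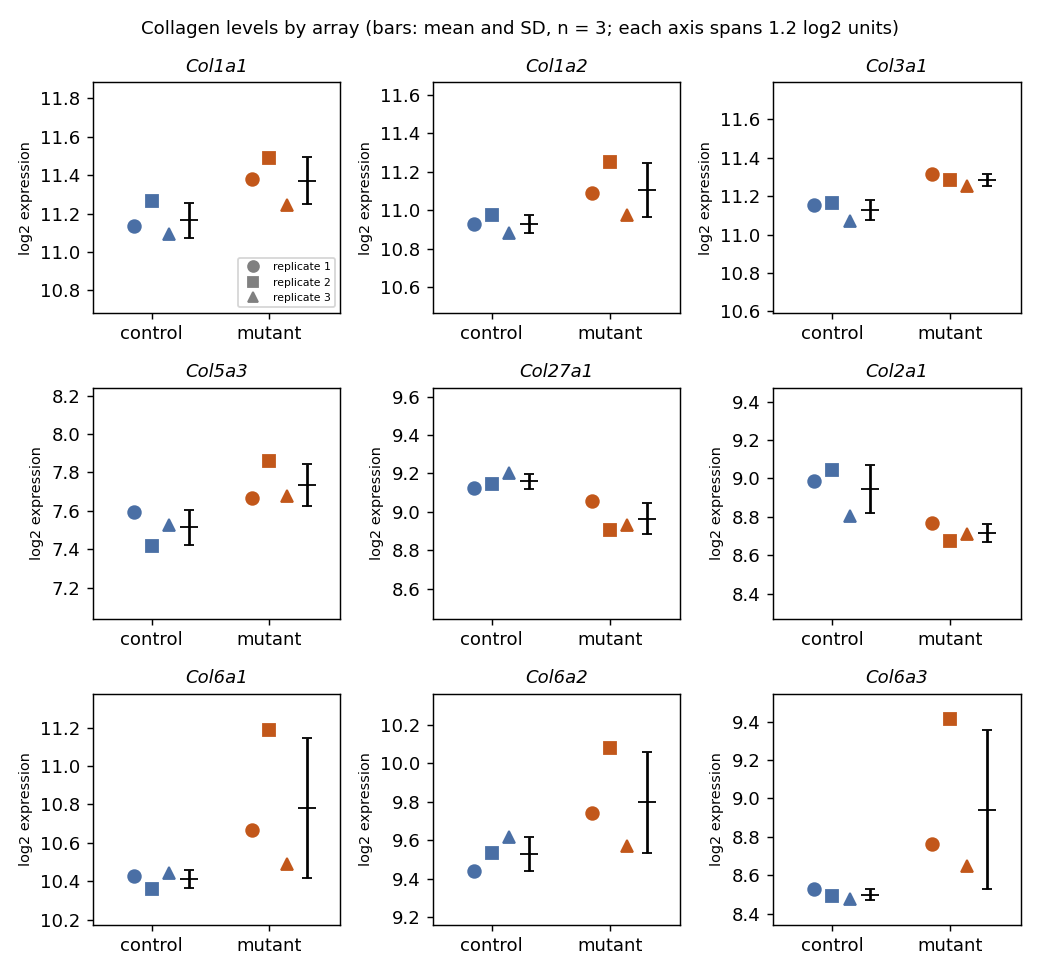
Each panel shows 1 gene, with the log2 expression of each array on the vertical axis, the replicate number as the symbol and the mean with SD (n = 3) beside each group. All vertical axes span 1.2 log2 units, so heights of spread can be compared between panels. Col27a1 and Col2a1 have mutant arrays below all controls, and in the 3 type VI panels mutant replicate 2 stands above every other array.

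Most markers of fibroblast-like mesenchyme also had higher means in mutants. Of 11 such markers, 10 had higher means, against 54.8% of all genes, 6 of them at an unadjusted p under 0.05, against 7.34%. Dcn, a small proteoglycan that binds collagen fibrils, was called (log2 difference 0.54, SE 0.05). The mean log2 value of the list was 10.03 to 10.10 in controls and 10.32 to 10.43 in mutants. The matrix protein gene Postn read 9.54 to 9.63 in controls and 10.12, 10.94 and 10.31 in mutant replicates 1 to 3. The 7 genes that define lung mesenchyme did not share this, with list means of 10.82 to 10.89 in controls and 10.79 to 10.94 in mutants. All 18 pan-epithelial genes had lower means in mutants, 14 of them at an unadjusted p under 0.05, against 5.15% of all genes. Among them Esrp1, a splicing regulator of epithelial cells, was called (log2 difference -0.48, SE 0.05, limma adjusted p = 0.033). Their list mean was 9.23 to 9.32 in controls and 8.92 to 9.08 in mutants. In whole organs, fewer cells of a type and less RNA per cell cannot be told apart, and the part of cell makeup in the collagen values was not tested.

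Type VI collagen had the largest differences among the 35 genes, and they were smaller without mutant replicate 2. With types VII and VIII it forms a group of 6 genes that all had higher means, against 54.8% of all genes. The median log2 difference of the 6 was 0.20. Of the 6, Col6a3 alone was higher at an unadjusted p under 0.05, against 7.34% of all genes. A type VI molecule can join the products of Col6a1, Col6a2 and Col6a3, the 3 type VI genes in the list. Col6a3 read 8.53, 8.49 and 8.48 in controls and 8.76, 9.41 and 8.65 in mutants. All mutant arrays lay above all controls, and mutant replicate 2 lay 0.65 above the next array. The log2 difference of Col6a3 was 0.44 (SE 0.18, adjusted p = 0.382), a 1.36-fold higher mean, and without mutant replicate 2 it was 0.21. Col6a1 read 10.43, 10.36 and 10.45 in controls and 10.66, 11.19 and 10.49 in mutants, again without overlap. Its log2 difference was 0.37 (SE 0.16, adjusted p = 0.401), and 0.17 without mutant replicate 2. A second, dim probe set of Col6a1 at 6.10 to 6.39 gave a log2 difference of 0.10. Another probe set carries Col6a1 together with other symbols and was not used here. Col6a2, given by array after its values were seen because it completes the molecule, read 9.44, 9.53 and 9.62 in controls and 9.74, 10.08 and 9.57 in mutants. Mutant replicate 3 lay within the control range. Its log2 difference was 0.27 (SE 0.12, adjusted p = 0.425), 0.13 without mutant replicate 2, and 0.08 when control replicate 1 was left out as well.

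The order of the mutant arrays, replicate 2 over 1 over 3, was shared by all 3 type VI genes, both type I chains and the mean of the adipose list (10.10, 6.99 and 6.91). The defining adipose genes Fabp4, Adipoq, Plin1 and Cidec stood at 12.92, 9.22, 9.90 and 10.41 in mutant replicate 2, and their highest values elsewhere were 8.52, 6.39, 7.51 and 7.68, each in control replicate 3. In control replicate 3 the type VI chains had a mean of 9.51, against 9.47 and 9.46 in the other controls. In mutant replicates 1 and 3, where the adipose list lay within the control range, the type VI mean was 9.72 and 9.57. The part of adipose cells in these values was not tested beyond leaving each array out.

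The promoters of the listed type VI genes are shown because their products can form 1 molecule and their mutant arrays had 1 order. Col6a2 and Col6a1 are direct neighbours on chromosome 10 and run in the same direction, with 0 protein-coding genes between them, whereas Col6a3 is on chromosome 1. The windows are the 150 bases before the start at chr10:76726045-76726194 on the minus strand, chr10:76623405-76623554 on the minus strand and chr1:90843972-90844121 on the minus strand (GRCm38.p6). Capitals mark the same 3 motifs as above, and for Col6a2, which has 2 starts in the table, the one listed earlier was used.
Col6a1: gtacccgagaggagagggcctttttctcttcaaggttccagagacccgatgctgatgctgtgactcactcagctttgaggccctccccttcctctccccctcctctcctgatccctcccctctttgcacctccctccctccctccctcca
Col6a2: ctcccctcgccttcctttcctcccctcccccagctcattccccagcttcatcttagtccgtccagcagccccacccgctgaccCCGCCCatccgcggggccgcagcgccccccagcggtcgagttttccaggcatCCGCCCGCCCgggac
Col6a3: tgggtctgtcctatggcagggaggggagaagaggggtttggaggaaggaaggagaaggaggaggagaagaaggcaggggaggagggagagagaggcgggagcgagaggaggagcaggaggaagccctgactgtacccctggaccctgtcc
The letters searched were found only in the Col6a2 window, as GGGCGG on the opposite strand at -67 to -62, -15 to -10 and -11 to -6. C and T made up 70.7% of the Col6a1 window and 69.3% of the Col6a2 window, against 24.0% of the Col6a3 window, where purines prevailed.

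Of the other genes placed with type VI, none reached an unadjusted p under 0.05 by limma. Col7a1, the anchoring fibril collagen, had a log2 difference of 0.06 (95% interval -0.13 to 0.24), with all mutant arrays inside the control range. Col8a1 and Col8a2, the network-forming type VIII chains, had log2 differences of 0.08 and 0.14, with 95% intervals of -0.09 to 0.25 and -0.03 to 0.31. For Col8a2, mutant replicates 1 and 3 (7.11 and 6.98) lay above the highest control (6.92).

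The cartilage collagens gave log2 differences between -0.04 and 0.09 apart from Col2a1. Of 7 genes, 5 had higher means, against 54.8% of all genes, and 2 had lower means. The median log2 difference of the 7 was 0.01. By limma 0 passed over all genes, and 1 was lower at an unadjusted p under 0.05, against 5.15% of all genes. Col2a1, the main fibrillar collagen of cartilage, read 8.98, 9.05 and 8.81 in controls and 8.77, 8.67 and 8.71 in mutants. All mutant arrays lay below all controls, and control replicate 3 was the closest to them. The log2 difference was -0.23 (SE 0.07, adjusted p = 0.301), a 1.17-fold lower mean, with -0.30 without control replicate 3 and -0.18 without control replicate 2. Its unadjusted p stayed under 0.05 in all 6 fits that left out 1 array, as did that of Col27a1. With both control replicate 1 and mutant replicate 2 left out, the log2 difference of Col2a1 was -0.19 with an unadjusted p of 0.087 by limma, and that of Col27a1 was -0.18 with an unadjusted p of 0.045.

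The partners of type II collagen in cartilage fibrils gave log2 differences between -0.04 and 0.09, with 95% intervals that all included 0. Col11a1 and Col11a2, which start those fibrils, had log2 differences of 0.01 (95% interval -0.12 to 0.15) and -0.04 (95% interval -0.15 to 0.06). Col9a1, Col9a2 and Col9a3, whose products coat the fibrils, had differences of 0.05, 0.09 and 0.01, and their intervals reached from -0.12 to 0.23, from -0.05 to 0.23 and from -0.11 to 0.12. Col10a1, the collagen of hypertrophic cartilage, had a difference of 0.08 (95% interval -0.10 to 0.27), and its probe set was dim, at the 24.9th percentile of mean expression. Col11a1 turned to -0.02 and Col9a3 to -0.03 when arrays were centred on their medians.

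Among 14 cartilage markers, 10 had higher means, against 54.8% of all genes, and 4 had lower means. The list means were 7.53 to 7.62 in controls and 7.57 to 7.64 in mutants. The markers with lower means were the transcription factor genes Sox9, Sox5 and Sox6, which are known to drive Col2a1 in chondrocytes, and the link protein gene Hapln1. Their log2 differences were -0.13 (SE 0.09), -0.12 (SE 0.05), -0.13 (SE 0.06) and -0.30 (SE 0.08). The arrays of the groups separated for Sox5 and Hapln1 and overlapped for Sox9 and Sox6. Sox9 is also expressed in the tips of the lung epithelium. Any link between the Sox genes and the Col2a1 values was not tested. The matrix genes Matn1, Epyc and Acan had higher means, by 0.28, 0.30 and 0.18, at mean log2 values between 5.84 and 6.50 in each group. For these 3 the arrays of the groups separated too, with the mutants above. Over all genes the groups separated with mutants above in 10.6% and with mutants below in 8.83%. None of the 14 was called by limma at an adjusted p under 0.05.

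The 6 fibril-associated collagens had a median log2 difference of 0.08, with 4 higher and 2 lower means, against 54.8% of all genes higher. Of the 6, 0 were at an unadjusted p under 0.05 by limma. Col19a1, found at muscle and basement membrane zones, was the one gene whose groups separated, at 6.62, 6.56 and 6.56 in controls and 6.65, 6.65 and 6.63 in mutants. The margin was under 0.01 and the log2 difference 0.06 (SE 0.05, adjusted p = 0.616). Its direct neighbour on chromosome 1, Col9a1, had overlapping groups. For Col12a1 and Col14a1, which bind type I fibrils, the differences were 0.09 (95% interval -0.07 to 0.25) and -0.02 (95% interval -0.21 to 0.16). Col14a1 had its highest value in mutant replicate 1 (10.11) and its lowest in mutant replicate 3 (9.81), with the controls at 9.94 to 9.99 between them. Col16a1, Col20a1 and Col22a1, the last of these known from tissue junctions such as that of muscle and tendon, had differences of 0.11, 0.13 and -0.04. For Col22a1 the difference was 0.02 when either control replicate 1 or mutant replicate 1 was left out.

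Of 4 collagens that stay in the cell membrane, 3 had higher means, against 54.8% of all genes. Of the 3, 1, Col17a1, was at an unadjusted p under 0.05, against 7.34% of all genes higher at such a p. Col17a1, a component of the hemidesmosomes that hold basal epithelial cells to the basement membrane, read 7.14, 7.11 and 7.18 in controls and 7.29, 7.24 and 7.44 in mutants. The groups did not overlap and mutant replicate 3 was highest. The log2 difference was 0.18 (SE 0.06, adjusted p = 0.338). The 4 measured skin keratinocyte genes, among which Krt14 and Trp63 also mark basal cells, had list means of 6.82 to 6.98 in controls and 6.93 to 6.97 in mutants. Col23a1 read 9.81, 9.75 and 9.78 in controls and 9.87, 9.85 and 9.82 in mutants, apart by under 0.01 at the closest pair, and the log2 difference was 0.07 (SE 0.05, adjusted p = 0.571). Col25a1, whose product was found in amyloid plaques, and Col13a1, known from the neuromuscular junction, had differences of 0.05 and -0.07, with intervals of -0.10 to 0.19 and -0.21 to 0.08.

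All 4 multiplexin and other collagens had higher means in mutants, against 54.8% of all genes. The median log2 difference of the 4 was 0.12. At an unadjusted p under 0.05, where 7.34% of all genes were higher, 1 of the 4 was higher. That was Col26a1, a secreted collagen with an EMI domain, which read 9.67, 9.67 and 9.76 in controls and 9.96, 9.73 and 9.98 in mutants. Mutant replicate 2 lay within the control range and the other 2 mutants above it. Its log2 difference was 0.19 (SE 0.08, adjusted p = 0.365), and without mutant replicate 2 it was 0.27, with the lowest p of the 35 genes in that fit (adjusted p = 0.250). In Col26a1 the array that stood highest for type I and type VI was the lowest of the mutants. Col15a1 and Col18a1, proteoglycans of basement membrane zones, the latter the source of endostatin, had differences of 0.13 and 0.05 (95% intervals -0.10 to 0.35 and -0.13 to 0.23). Col15a1 was lowest in control replicate 1 (8.09), and its difference was -0.03 with both control replicate 1 and mutant replicate 2 left out. Col28a1, with von Willebrand factor domains, had a difference of 0.12 (95% interval -0.13 to 0.36) at the 22.5th percentile of mean expression. That difference was 0.0093 without control replicate 2 and 0.19 without control replicate 1.

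Over the 35 genes, mutant replicate 2 held the highest value for 12, mutant replicate 1 for 8 and mutant replicate 3 for 7, and the 3 controls together for the remaining 8. The lowest value fell in a control for 28 genes, among them control replicate 2 for 14. The mean over all 35 genes was 8.52, 8.51 and 8.52 in controls and 8.61, 8.64 and 8.58 in mutants, while the mean over all 22180 genes was 7.83 to 7.85 in controls and 7.85 to 7.86 in mutants. For control replicate 2 the all-gene mean was 7.83, the lowest of the 6.

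**Figure D3:**
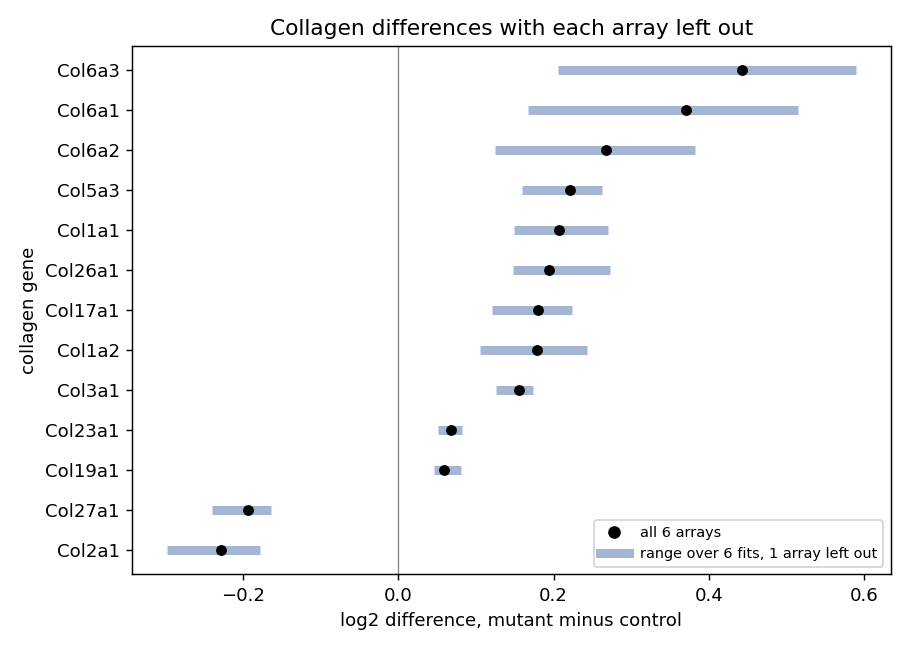
Black points are log2 differences, mutant minus control, from all 6 arrays, and bars span the values from the 6 fits that leave out 1 array, for the 12 collagens given by array under the naming rule and Col6a2. No bar crosses 0, and the 3 longest bars are those of Col6a3, Col6a1 and Col6a2. Most genes shown were chosen by these same values, and where groups do not overlap, leaving out 1 array cannot change the sign. Over all 35 collagens, 8 changed sign with 1 array left out.

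Genes that modify, fold, process, cross-link or bind collagen gave counts at an unadjusted p under 0.05 near those of all genes. Of 42 listed, 37 were measured. Higher means were found for 25 (67.6%, against 54.8% of all genes) and lower means for 12. The median log2 difference was 0.06, against 0.01 over all genes. By limma 0 passed over all genes, and 4 were at an unadjusted p under 0.05, 2 higher and 2 lower, or 5.41% each way, against 7.34% and 5.15% of all genes. That count was 2 when control replicate 2 or mutant replicate 3 was left out, and 9 after a further quantile normalization.

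Fkbp14, a prolyl isomerase of the endoplasmic reticulum that helps collagen fold, read 8.96, 8.90 and 9.00 in controls and 9.20, 9.14 and 9.19 in mutants. The groups were well apart, and the log2 difference was 0.22 (SE 0.05, adjusted p = 0.194), the lowest adjusted p of the 37. Plod2, a lysyl hydroxylase of collagen telopeptides, had a difference of 0.13 (SE 0.06, adjusted p = 0.395), with 10.23 to 10.25 in controls and 10.28, 10.44 and 10.41 in mutants. P3h2, a prolyl hydroxylase known for acting on basement membrane collagen, was lower in all mutants, at 9.59, 9.43 and 9.52 against 9.62, 9.82 and 9.73 in controls (log2 difference -0.21, SE 0.07, adjusted p = 0.314). Itga1, the integrin chain of a collagen receptor on smooth muscle and other mesenchyme, read 10.13, 10.15 and 10.29 in controls and 10.04, 10.05 and 9.93 in mutants (log2 difference -0.19, SE 0.06, adjusted p = 0.320). The 7 smooth muscle markers had list means of 10.08 to 10.22 in controls and 9.82 to 10.04 in mutants.

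The central enzymes and chaperones of procollagen gave small values. The collagen chaperone gene Serpinh1 and P4hb, a subunit of prolyl hydroxylase, had log2 differences of -0.03 (95% interval -0.18 to 0.11) and 0.05 (95% interval -0.06 to 0.17). The procollagen C-proteinase gene Bmp1 had -0.02 (95% interval -0.15 to 0.12), and Lox, whose product cross-links collagen and elastin, had -0.11 (95% interval -0.25 to 0.04). None of the 7 propeptide processing and 4 cross-linking genes reached an unadjusted p under 0.05 by limma. The hydroxylase genes P4ha1 and Plod1 had the widest intervals, with mutant replicate 2 at 11.00 and 9.61 against at most 10.61 and 9.14 in the other arrays, the array that also stood apart for type VI.

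**Figure D4:**
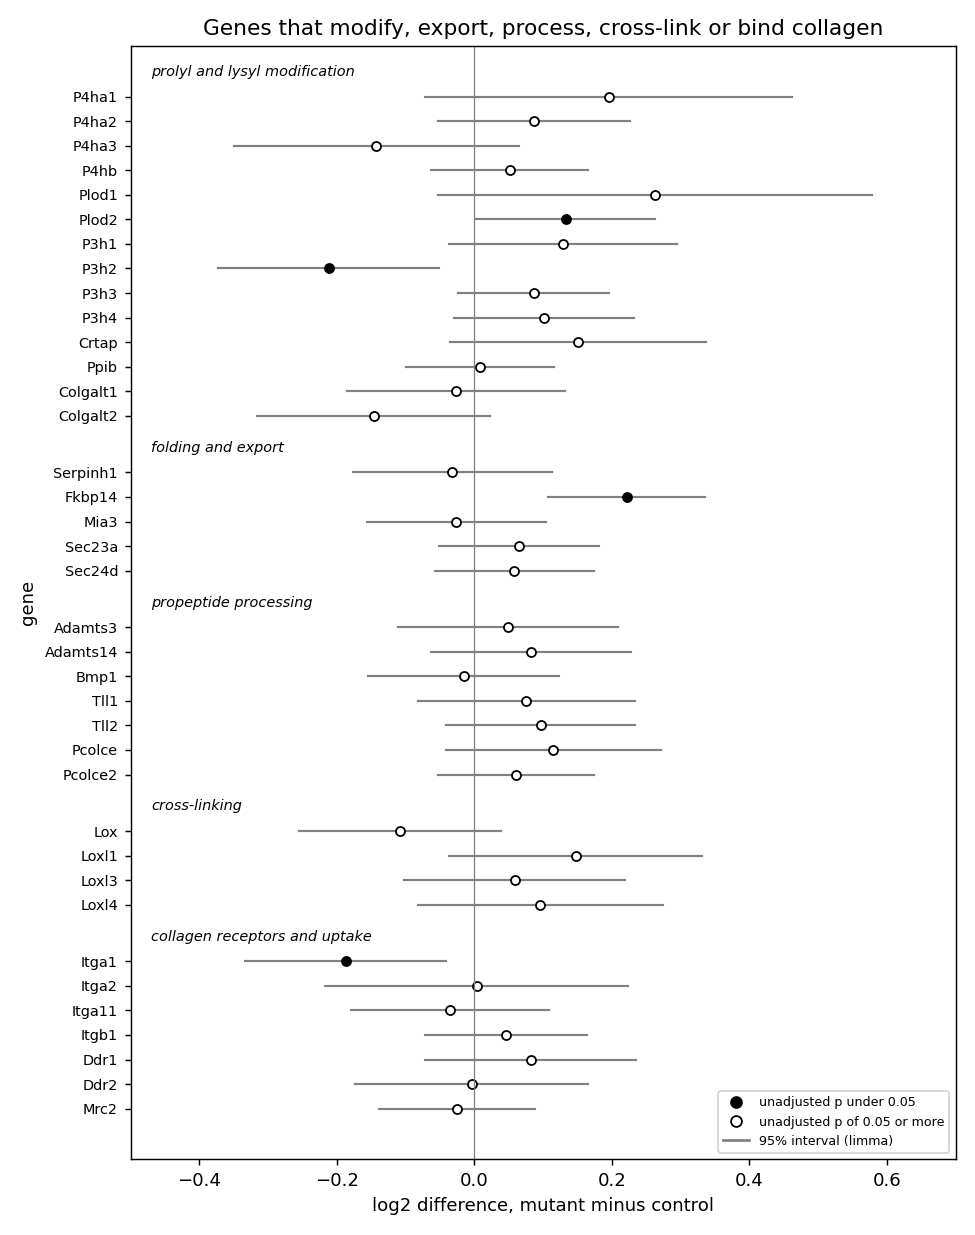
Points are log2 differences, mutant minus control, of the 37 measured genes that modify, fold, process, cross-link or bind collagen, and lines are limma's 95% intervals (n = 3 and 3). Filled points (Plod2, P3h2, Fkbp14 and Itga1) have an unadjusted p under 0.05, and the intervals of P4ha1 and Plod1 reach farthest to the right.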

How the data were processed

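Total RNA of 6 whole-lung samples, 100 ng each, was copied from its poly(A) end, amplified and biotinylated, per the labels' protocols. Values were deposited by the authors as log2 expression per probe set, and the submitters' processing notes name oligo and RMA, with versions, build and filters not given in the sources used here. The log2 scale was inferred from the range of the values. RMA brings arrays to a common scale, so differences are relative to the bulk of genes, although the deposited medians still differed. Of 41345 probe sets, 23521 carried 1 symbol, 1814 several and 16010 were unnamed here.

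The test was limma 3.58.1 under R 4.3.3, by lmFit and eBayes with genotype alone in the model, two-sided, adjusted by Benjamini-Hochberg across 22180 genes at a threshold of 0.05 and with no filter on dim genes, giving limma's standard errors and 95% intervals. P-values measure only the spread between these arrays. Collagens, lists and tests were chosen with earlier results of these data known. By the naming rule, values per array are given for collagens at an unadjusted p under 0.05, with groups that do not overlap, or with an array over 0.8 from the nearest, and for Col1a1, Col1a2, Col3a1 and Col2a1; of the other collagen pathway genes, up to 10 at an unadjusted p under 0.05. Genes given beside these were chosen after their values were seen. Of 121 marker genes, 116 were measured; lists not mentioned in the results are in the closing section. Same-numbered arrays were not paired: the correlations of their deviations were -0.04, -0.06 and 0.07. Alternatives were other probe set summaries, normalizations, filters, variance models, array weights, a replicate block and each array left out. Promoters and gene order came from RefSeq tables of GRCm38.p6. Plots were made in Python 3.11.15 using matplotlib 3.10.9.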

Additional observations from a re-analysis of the deposited data

How the results depend on the processing

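No collagen was called at an adjusted p under 0.05 by limma under any alternative run, or at 0.10. The count at an unadjusted p under 0.05, 9 with all arrays, was 4 (11.4% of collagens, against 12.51% of all genes) with arrays centred on their medians, 13 (37.1% against 12.6%) after a further quantile normalization, and 4 to 9 with 1 array left out, where 8.10% to 13.9% of all genes were at such a p. Without control replicate 1 it was 4, or 11.4% against 13.9%. The median log2 difference of the 35 genes, 0.09, was 0.106 after that normalization, 0.054 with arrays centred on their medians and 0.073 to 0.091 with 1 array left out. For the pathway genes the count of 4 became 9 after that normalization and 2 to 6 with 1 array left out. The fit with the replicate number as a block gave 9 collagens at an unadjusted p under 0.05 and 0 called, with 0 genes called in the whole table against 14, so the block changed no collagen call.

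With 1 array left out, 8 of the 35 collagens changed sign and another 17 moved by over 1.5 times. Differences that changed sign were all small. With arrays centred, Col9a3 gave -0.029 and Col11a1 -0.021. Col14a1 gave 0.011 after the further normalization and Col9a3 -0.00023 with array weights. With both control replicate 1 and mutant replicate 2 left out, Col9a3, Col14a1, Col22a1 and Col15a1 gave -0.0077, 0.015, 0.014 and -0.031. With 1 array left out, the ranges were -0.010 to 0.028 for Col9a3, -0.023 to 0.054 for Col11a1, -0.023 to 0.098 for Col9a1, -0.107 to 0.045 for Col14a1, -0.090 to 0.022 for Col22a1, -0.0075 to 0.139 for Col7a1, -0.0085 to 0.082 for Col25a1 and -0.033 to 0.113 for Col18a1; the cause was not tested. Filters at the 30th and 50th percentile kept 32 and 25 of the 35 genes. The number of arrays, 3 per group, limits all values.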

Other observations

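Other marker lists measured beside the collagens gave the following mean log2 values. The 6 leukocyte genes lay at 8.31 to 8.38 in controls and 8.48 to 8.59 in mutants, and the 6 mesothelial genes at 8.66 to 8.95 and 8.86 to 9.01. The 8 endothelial genes lay at 9.96 to 10.05 in controls and 9.92 to 10.04 in mutants. The 3 measured erythroid genes lay at 6.86 to 6.95 and 6.95 to 7.09, the 5 neural crest and neuron genes at 8.05 to 8.07 and 8.02 to 8.25, and the 6 skeletal muscle genes at 6.91 to 7.02 and 7.03 to 7.08.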
